A study of Mus musculus with 16 samples.

Results

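The cytochrome P450 genes described here are 60 genes of the mouse P450 superfamily other than the lung enzymes best known for NNK and hydrocarbon activation. They were taken as every array feature that is not a control and whose gene name has the form of a P450 symbol (Cyp, a number, a letter and a number), leaving out 10 named genes. Those 10 were Cyp2a5, Cyp2a4, Cyp2f2, Cyp2b10, Cyp2b19, Cyp2e1, Cyp2s1, Cyp1a1, Cyp1b1 and Cyp51. The 60 genes stand among 28100 gene names on the array and had 86 probes, and a gene was represented by its brightest probe. A total of 46 of the 60 could be tested, because in 1 group or more the probe exceeded background clearly in Cy5 on each of the 4 arrays.

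Lung RNA came from 16 female mice of the tumour-prone inbred strain A/J, 4 in each of 4 groups and each on its own 2-colour Agilent array. NNK+SECY mice received a single intraperitoneal injection of the tobacco nitrosamine NNK (0.2 mL of saline at 10 uM by the labels) and, from 3 days later, 15 ppm selenocystine in the diet for 10 days. SECY mice were fed 15 ppm selenocystine for 10 days with no injection, NNK mice had the injection and were killed 13 days later, and Untreated mice had neither, while all 4 groups ate an AIN-76 diet, which holds 0.35 ppm selenium. The labels mention no saline injection for the mice that did not receive NNK. On every array the mouse's own RNA was labelled with Cy5 and an equal mix of the 4 Untreated lungs with Cy3, so a log2 ratio of 0 means the level of that pool, and the Untreated arrays compare each control with a pool that contains it. Values are log2 ratios of lung over pool unless a signal is named, and differences between groups are log2 fold changes with the standard error (SE) of a limma model and n = 4 arrays per group.

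P450 enzymes are heme proteins that insert oxygen into their substrates. Members of families 1 to 3 oxidise drugs and other foreign compounds, chiefly in liver, while others build or break down fatty acids, eicosanoids, sterols, steroid hormones, vitamin D and retinoic acid. In lung, club and alveolar cells carry a limited set of them, among which Cyp4b1, a fatty acid hydroxylase that also activates some inhaled toxicants, is a typical member. Most of the microsomal enzymes take their electrons from the reductase Por.

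Of the 60 genes, 33 were well above background on all 16 arrays in Cy5 and 2, Cyp11b2 and Cyp24a1, on none. The tested genes were 20 of 27 drug-metabolising enzymes of families 1 to 3, 14 of 16 enzymes of fatty acids and eicosanoids, 5 of 6 of cholesterol and bile acids, 4 of 5 of steroid hormone synthesis, 1 of 3 of vitamin D, 1 of 2 of retinoic acid, and the orphan Cyp20a1, whose substrate is not known. A further 9 genes, all tested, were well above background on all NNK+SECY and SECY arrays but not on all NNK and Untreated arrays. Detection differed by slide set: 75.03% to 79.3% of spots were well above background on slides 5 to 8, the barcodes of NNK+SECY and SECY. On slides 1 to 4, the barcodes of NNK and Untreated, the share was 66.3% to 72.6%. Each slide barcode occurs on 2 arrays that were scanned on different days, so diet cannot be told apart from slide set, nor NNK from scan day. A slide is named here by its barcode alone, and the labels do not say whether the 2 arrays shared a physical slide. Whether signal carried over between the arrays of a slide was not tested.

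No tested member passed the threshold in any comparison, an adjusted p under 0.05 by Benjamini-Hochberg over all genes tested. In NNK+SECY vs Untreated 0 of 46 members were called where the share over all genes was 1.59%, and 2 members (4.35%) had an unadjusted p under 0.05, beside 9.19% of all genes. In NNK+SECY vs NNK 0 of 46 were called beside 1.74% of all genes, with 2 at an unadjusted p under 0.05 (9.88% of all genes). Comparing NNK+SECY with SECY, 0 were called beside 0.0093% of all genes, with 1 at an unadjusted p under 0.05 (6.18% of all genes). In SECY vs Untreated 0 were called beside 0.274% of all genes, with 2 at an unadjusted p under 0.05 (8.1% of all genes), and in NNK vs Untreated 0 beside 0.321%, also with 2 (5.04%). The interaction, which is the NNK effect on the selenocystine diet minus the NNK effect without it, called 0 members beside 0.00465% of all genes, with 1 at an unadjusted p under 0.05 (4.62% of all genes). At these shares a set of 46 genes with no call is close to the background of each comparison.

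The members' median log2 fold change lay near 0 in each pair: 0.03 in NNK+SECY vs Untreated, 0.03 in NNK+SECY vs NNK, 0.04 in NNK+SECY vs SECY, 0.02 in SECY vs Untreated and 0.01 in NNK vs Untreated. The medians over all genes tested lay within 0.01 of 0 in the same pairs. The tails were wider on the NNK+SECY side. In NNK+SECY vs Untreated 12 of 46 members lay beyond the 95th percentile of the absolute change over all genes, which was 0.22, and 10 did so against that of NNK+SECY vs NNK. Against the same percentile of their own comparison, 11 members lay beyond it in NNK+SECY vs SECY, 5 in SECY vs Untreated and 3 in NNK vs Untreated.

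**Figure D1:**
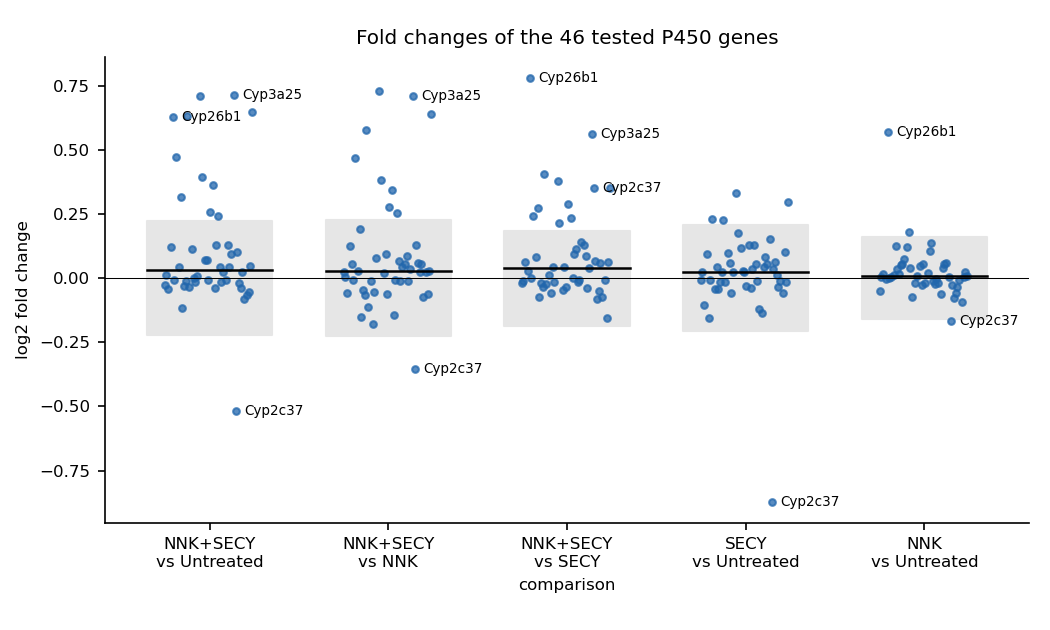
Log2 fold change of the 46 tested members (points) in 5 comparisons, with the member median (black line) and, in grey, the range of plus or minus the 95th percentile of the absolute change over all genes tested. Most points lie inside the grey range, and the points above it in the 3 NNK+SECY comparisons are mainly the genes that were high on 1 array of that group.

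The widest values among the members came from 2 arrays. On NNK+SECY 3 the ratio of 19 of the 60 genes was above 0.5, and on SECY 4 that of 14, whereas on each of the other 14 arrays at most 2 were. One of the 19 was Cyp26b1, described further on. On their brightest probes the other 18 were highest on NNK+SECY 3 and second highest on SECY 4 without exception. They had 0.62 to 2.90 on NNK+SECY 3, 0.18 to 1.67 on SECY 4 and no value above 0.61 on any other array. They were picked after their values were seen, so these values are a description and carry no test. By role, 15 were drug-metabolising enzymes (Cyp2a12, Cyp2c29, Cyp2c38, Cyp2c39, Cyp2c40, Cyp2c54, Cyp2c70, Cyp2d9, Cyp2d10, Cyp2d26, Cyp3a11, Cyp3a16, Cyp3a25, Cyp3a41 and Cyp3a44) and 3 were fatty acid and eicosanoid enzymes (Cyp2j5, Cyp4a14 and Cyp4f14). Most of these genes are known for their expression in mouse liver. Not every member known from liver was high on NNK+SECY 3: the brightest probes of Cyp2b9, Cyp2b13 and Cyp4a10, given further on, had negative ratios there. Of the 18, 10 were tested and 8 were not, because their probes were well above background on too few arrays. A second probe of Cyp2d10, which passed the filter, had 0.61 on NNK+SECY 3, 0.20 on SECY 3 and 0.10 on SECY 4. It gave 0.19 in NNK+SECY vs Untreated, against 0.47 for the brightest probe. The second probe of Cyp2d9, which also passed, kept the order, with 0.75 on NNK+SECY 3 and 0.19 on SECY 4.

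A few of these genes with an entry in RefSeq's promoter table (assembly GRCm38.p6) are shown from 250 bases before to 50 after the gene's start, on the gene's own strand, since they varied together across the arrays. Capitals mark CAAAG or its reverse complement CTTTG, the core of a half-site of the liver factor HNF4. The windows are Cyp3a25 at chr5:146009569-146009868 (minus strand), Cyp3a11 at chr5:145879805-145880104 (minus), Cyp2d26 at chr15:82794196-82794495 (minus) and Cyp2c29 at chr19:39286835-39287134 (plus).
Cyp3a25: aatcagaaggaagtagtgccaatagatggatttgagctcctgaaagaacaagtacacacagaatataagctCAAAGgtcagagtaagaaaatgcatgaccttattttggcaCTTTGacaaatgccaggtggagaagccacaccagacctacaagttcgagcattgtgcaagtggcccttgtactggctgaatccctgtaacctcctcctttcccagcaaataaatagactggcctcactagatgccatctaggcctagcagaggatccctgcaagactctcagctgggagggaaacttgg
Cyp3a11: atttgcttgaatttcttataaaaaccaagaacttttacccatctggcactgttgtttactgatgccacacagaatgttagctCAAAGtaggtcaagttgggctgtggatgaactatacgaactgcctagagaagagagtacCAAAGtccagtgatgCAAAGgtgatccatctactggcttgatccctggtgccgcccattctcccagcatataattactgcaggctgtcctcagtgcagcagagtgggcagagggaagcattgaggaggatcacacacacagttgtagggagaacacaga
Cyp2d26: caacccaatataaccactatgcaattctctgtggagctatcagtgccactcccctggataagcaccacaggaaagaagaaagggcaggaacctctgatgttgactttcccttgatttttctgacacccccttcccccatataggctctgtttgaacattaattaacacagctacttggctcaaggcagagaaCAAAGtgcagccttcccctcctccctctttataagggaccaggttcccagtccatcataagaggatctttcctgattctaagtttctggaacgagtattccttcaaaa
Cyp2c29: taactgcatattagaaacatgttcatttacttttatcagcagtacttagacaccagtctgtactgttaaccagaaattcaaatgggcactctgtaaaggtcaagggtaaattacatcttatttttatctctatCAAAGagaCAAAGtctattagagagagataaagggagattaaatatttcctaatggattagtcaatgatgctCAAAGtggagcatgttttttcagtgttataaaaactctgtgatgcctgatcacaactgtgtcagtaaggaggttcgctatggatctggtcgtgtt
The motif was found 2, 3, 1 and 3 times in these windows. It is short, and on both strands it occurred in 41 of the 44 members with a window (93.2%) and in 54% of all 27025 windows. Other motifs searched were the TATA box TATAAA on the gene's strand (34.1% of members, 8.88% of all windows), and on both strands the nuclear receptor half-site AGGTCA (22.7% and 16%), the antioxidant response element core TGACNNNGC (11.4% and 12.5%), the xenobiotic response element core GCGTG (18.2% and 32.5%) and the HNF1 half-site GTTAAT (4.55% and 7.2%). AGGTCA can overlap CAAAG, and a match is a description of letters, not of a site in use.

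Cyp3a25, a member of the drug-oxidising Cyp3a cluster, had log2 ratios of 0.00, 0.36, 2.83 and -0.18 on NNK+SECY 1 to 4, against -0.12, -0.24, -0.13 and 1.25 on SECY 1 to 4, -0.16, -0.01, 0.39 and -0.06 on NNK 1 to 4, and -0.11, -0.04, 0.41 and -0.11 on Untreated 1 to 4. A single mouse stood high in each of the NNK+SECY and SECY groups, and the other mice of all 4 groups overlapped. The log2 fold change of NNK+SECY vs Untreated was 0.72 ± 0.49 (adjusted p = 0.778), and without NNK+SECY 3 and SECY 4 it was 0.02. Cyp3a25 was well above background on all 4 NNK+SECY arrays but on only 2 SECY, 2 NNK and 1 Untreated array. Its second probe, which did not pass the filter, gave 0.16 in the same comparison.

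Cyp4a14, a fatty acid hydroxylase known as a target of the receptor PPAR alpha in liver, had -0.05, 0.27, 2.26 and -0.09 on NNK+SECY 1 to 4 and -0.08, -0.10, 0.02 and 0.94 on SECY 1 to 4. Its values were -0.16, -0.21, 0.32 and 0.14 on NNK 1 to 4 and -0.11, -0.11, 0.13 and -0.05 on Untreated 1 to 4. As for Cyp3a25, NNK+SECY 3 was highest and SECY 4 next, while the order of the arrays below them differed. NNK+SECY vs Untreated gave 0.63 ± 0.38, which did not pass, and 0.08 without NNK+SECY 3. The probes of Cyp4a10, a related enzyme under the same receptor, disagreed. The brightest had -0.08 on NNK+SECY 3 and -0.11 on SECY 4, a second that passed the filter had 0.29 and -0.03, and of the other two, which did not pass, one had 0.81 on NNK+SECY 3 and 0.05 on SECY 4 and the other -0.11 and -0.09.

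Cyp2c29, an epoxygenase of arachidonic acid, had 0.07, 0.20, 1.64 and -0.19 on NNK+SECY 1 to 4, against 0.05, -0.02, -0.08 and 0.68 on SECY 1 to 4. Its NNK arrays lay between 0.21 and 0.32 and its Untreated arrays between 0.04 and 0.24, but it was well above background on only 2 NNK and 1 Untreated array. NNK+SECY vs Untreated gave 0.32 ± 0.28, and -0.09 without NNK+SECY 3. Cyp3a11, the main xenobiotic-inducible Cyp3a enzyme of mouse liver, had 1.56 on NNK+SECY 3 and 0.72 on SECY 4, with -0.12 to 0.14 on the other 14 arrays. Its fold change in NNK+SECY vs Untreated was likewise positive with all arrays, at 0.36 ± 0.27, and negative without NNK+SECY 3, at -0.03.

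Transcripts that mark liver were high on the same arrays. Of the 6 liver markers listed, 5 were measured, namely albumin (Alb, named Alb1 on the array), Apoa1, Apoa2, Fabp1 and Ttr. Albumin, the chief plasma protein made by liver, had a log2 ratio of 2.59 on NNK+SECY 3 and 2.47 on SECY 4, followed by 1.53 on NNK+SECY 2, 1.19 on Untreated 3 and 0.60 on NNK 3. On the other 11 arrays it lay between -1.98 and -0.45. Fabp1, the liver fatty acid binding protein, was at 2.71 on NNK+SECY 3 and 1.48 on SECY 4, and Ttr, transthyretin, at 1.87 and 0.77. The summed Cy5 signal of the 5 markers ranged from 820.0 to 52278.1 in NNK+SECY lungs, from 958.1 to 12827.2 in SECY lungs, from 1175.4 to 2154.4 in NNK lungs and from 1187.1 to 3069.5 in Untreated lungs, with NNK+SECY 3 and SECY 4 the highest of their groups. Only Alb and Fabp1 were well above background on all 16 arrays, and Ttr and Apoa1 were so on 3 and 4 arrays. The part of liver transcripts in the P450 values was not tested, and a change in the share of a cell type and a change in RNA per cell cannot be told apart in these bulk samples.

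**Figure D2:**
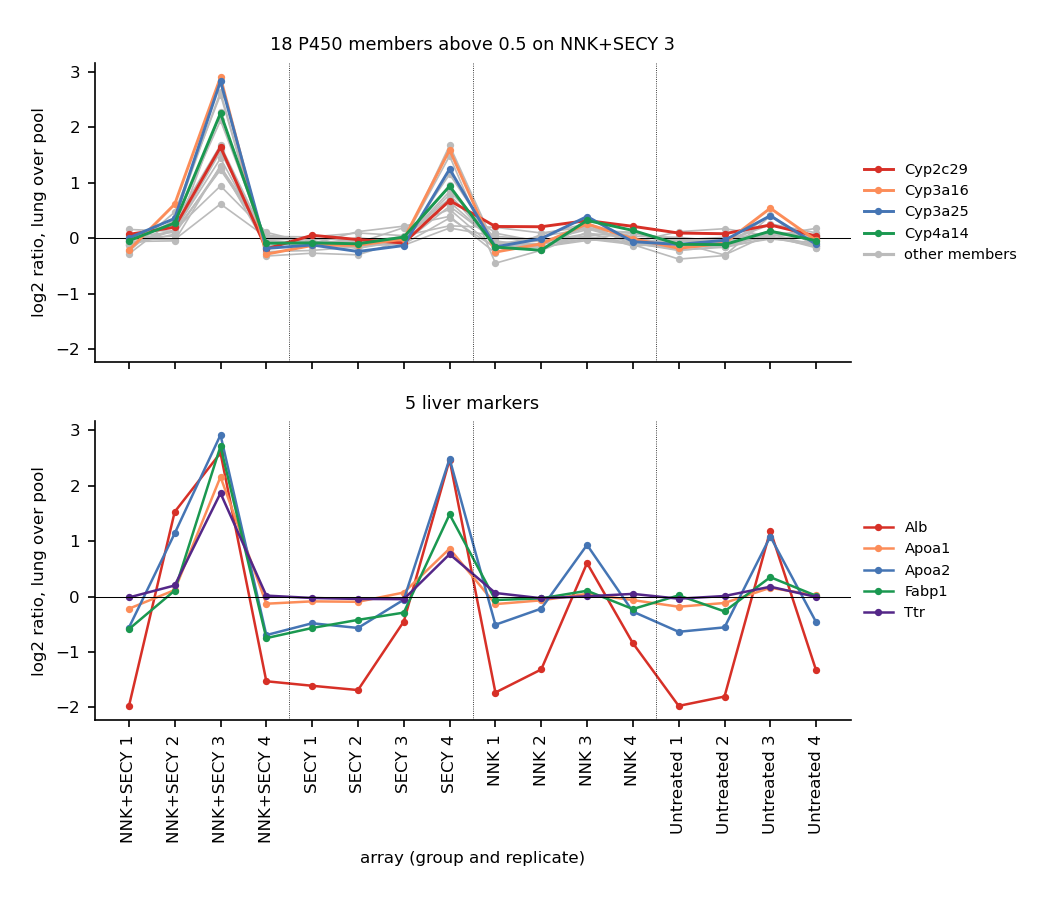
Log2 ratio of lung over pool on each of the 16 arrays for the 18 members above 0.5 on NNK+SECY 3, Cyp26b1 aside (upper panel, 4 genes coloured), and for the 5 measured liver markers (lower panel). Both panels peak on NNK+SECY 3 and then on SECY 4, and albumin is also above 0 on NNK+SECY 2, NNK 3 and Untreated 3.

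On the other arrays where albumin was above 0, the 18 genes lay between -0.05 and 0.61 on NNK+SECY 2 (16 of 18 above 0), between -0.04 and 0.39 on NNK 3 (14 of 18) and between -0.02 and 0.54 on Untreated 3 (17 of 18). Cyp3a16, a drug-oxidising enzyme mostly expressed in the fetal and newborn liver, was at 0.61 on NNK+SECY 2, 0.26 on NNK 3 and 0.54 on Untreated 3, whereas Cyp2c54 was at -0.02, 0.00 and 0.01 and Cyp4f14 at -0.05, -0.04 and 0.01 on these arrays. NNK+SECY 3 held the highest value of 19 of the 44 tested members with a value on every array (43.2%), against 6.43% of all such genes. The pool channel also moved on that array for some of them. Cyp3a25 had a Cy3 signal of 6.76 (log2) on NNK+SECY 3, against 5.97 to 6.17 on the other 15 arrays, and Cyp2d26 had 7.41 against 6.56 to 6.76, although Cy3 held the same pool on every array. The reason was not tested, and it makes these ratios smaller than the Cy5 differences. Among the 46 tested members, 9 had a spread within groups above the 99th percentile of all genes (0.38, as a residual SD), and all but Cyp26b1 belong to the 18.

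**Figure D3:**
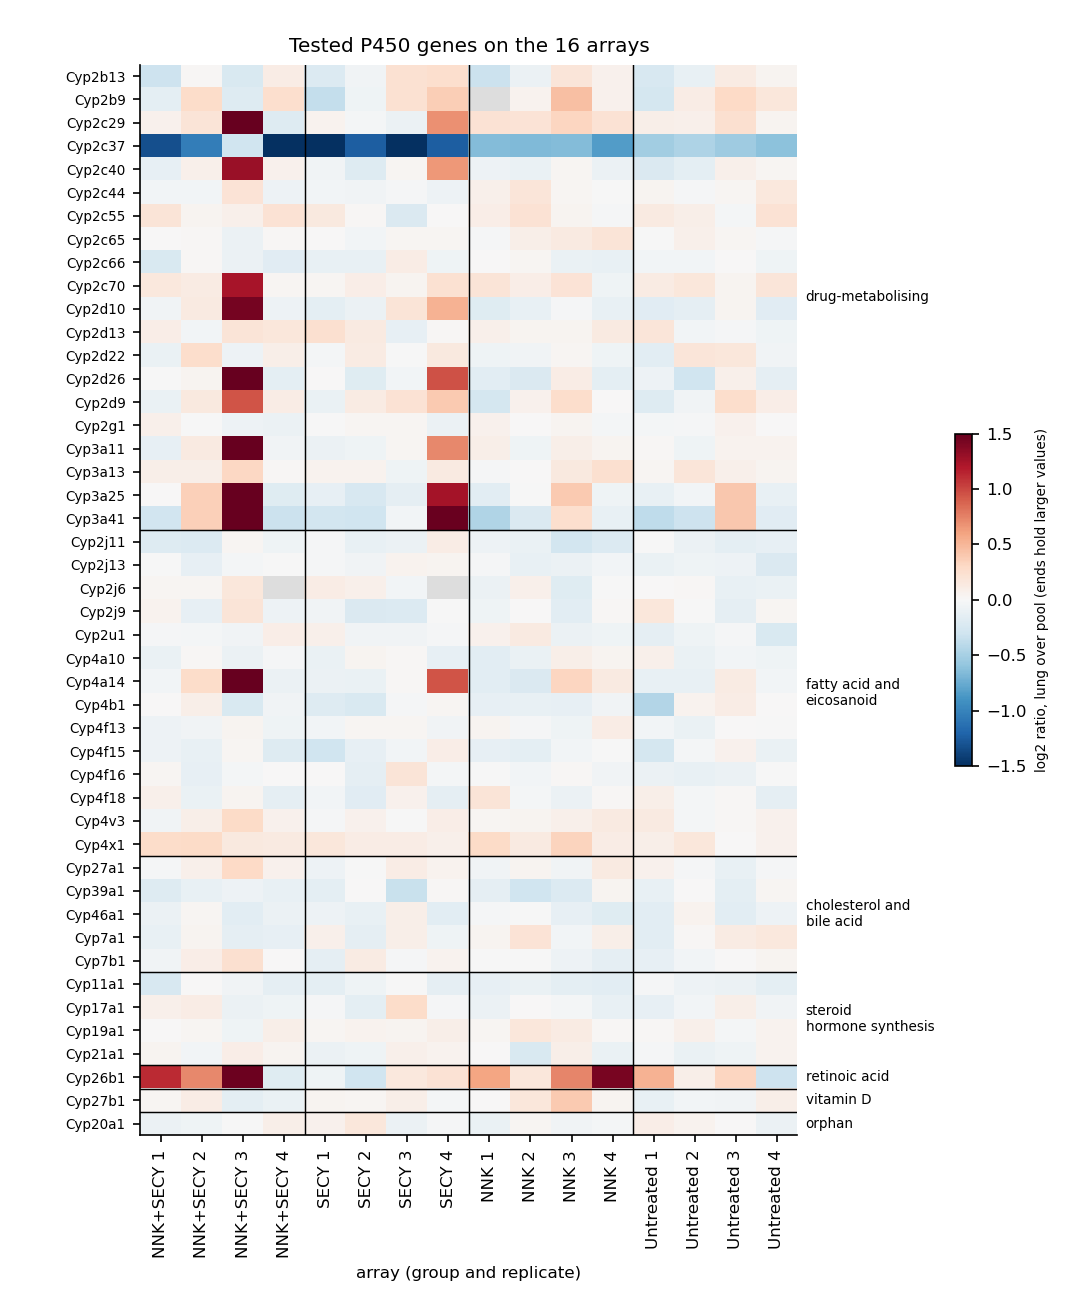
Log2 ratio of lung over pool (colour, limited to plus or minus 1.5) for the 46 tested members in rows, grouped by role, on the 16 arrays in columns; grey cells have no value. The columns of NNK+SECY 3 and SECY 4 hold the red cells of the drug-metabolising block and of Cyp4a14, Cyp2c37 is blue throughout, and Cyp26b1 varies from mouse to mouse.

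Among the drug-metabolising enzymes outside these 18, Cyp2c37 had the smallest p of any member. This gene belongs to the mouse Cyp2c cluster, whose products hydroxylate or epoxidise arachidonic acid. Its ratios were -1.32, -1.03, -0.30 and -1.57 on NNK+SECY 1 to 4, against -1.63, -1.23, -1.53 and -1.23 on SECY 1 to 4, -0.66, -0.66, -0.65 and -0.84 on NNK 1 to 4, and -0.53, -0.47, -0.53 and -0.61 on Untreated 1 to 4. Every SECY array lay below every NNK and Untreated array, and in the NNK+SECY group 3 of 4 arrays did, NNK+SECY 3 being the exception. SECY vs Untreated gave -0.87 ± 0.18 (limma, adjusted p = 0.0625), NNK+SECY vs Untreated -0.52 ± 0.18 (adjusted p = 0.296) and NNK+SECY vs NNK -0.35 ± 0.18 (adjusted p = 0.567). Without NNK+SECY 3, on which the 18 genes above were highest, the 3 values were -0.87, -0.77 and -0.60 and passed (adjusted p = 0.000574, 0.00397 and 0.0106).

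The separate dyes did not show a fall of Cyp2c37 in the selenocystine groups. Its Cy5 signal, the lung's own, was 6.96 ± 0.67 (log2, SD, n = 4) in NNK+SECY lungs and 6.91 ± 0.28 in SECY lungs, against 6.41 ± 0.08 in NNK lungs and 6.44 ± 0.14 in Untreated lungs. Its Cy3 signal, the common pool's, was 8.01 ± 0.15 on the NNK+SECY arrays and 8.32 ± 0.23 on the SECY arrays, against 7.11 ± 0.08 on the NNK arrays and 6.98 ± 0.20 on the Untreated arrays. Both dyes were higher on slides 5 to 8, the pool's more so, and Cy5 alone gave fold changes above 0 in the 3 comparisons, at 0.47, 0.51 and 0.55 in the order above, none of which passed. The Untreated arrays had a mean ratio of -0.53 against the pool of their own RNA, so this probe read lower in Cy5 than in Cy3 in every group. A second probe of Cyp2c37, which passed the filter, gave 0.04 in SECY vs Untreated and 0.12 in NNK+SECY vs Untreated, and had 0.48 on NNK+SECY 3.

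**Figure D4:**
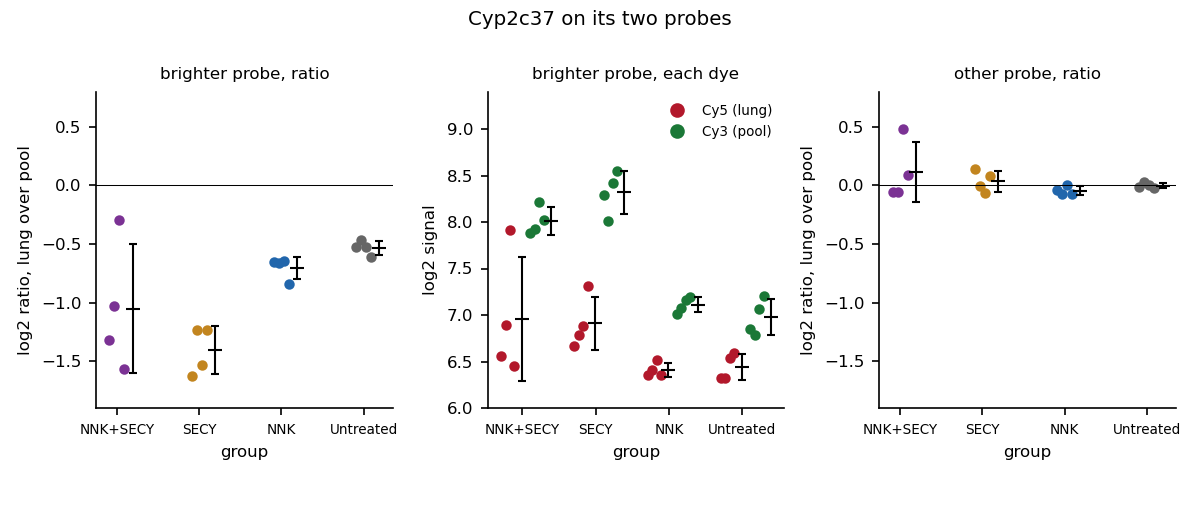
Cyp2c37 by group: log2 ratio of its brighter probe (left), log2 Cy5 and Cy3 signal of that probe (middle) and log2 ratio of its other probe (right); points are the 4 arrays and bars the mean ± SD. The ratio of the brighter probe is lowest in the SECY group, where both of its signals are above those of the NNK and Untreated arrays, and the other probe lies near 0 on all arrays but NNK+SECY 3.

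Cyp2b9 and Cyp2b13, neighbouring genes known as female-type enzymes of mouse liver, had values that went together from mouse to mouse on their brightest probes. Cyp2b9 had -0.15, 0.28, -0.20 and 0.25 on NNK+SECY 1 to 4, against -0.35, -0.06, 0.22 and 0.37 on SECY 1 to 4, 0.05, 0.45 and 0.06 on NNK 2 to 4, and -0.26, 0.12, 0.30 and 0.17 on Untreated 1 to 4. NNK 1 had no value, because its spot carried an outlier mark, and the fit used 3 NNK arrays. Cyp2b13 had -0.32, 0.02, -0.23 and 0.11 on NNK+SECY 1 to 4, against -0.21, -0.06, 0.23 and 0.25 on SECY 1 to 4, -0.32, -0.09, 0.18 and 0.06 on NNK 1 to 4, and -0.24, -0.11, 0.12 and 0.05 on Untreated 1 to 4. The groups overlapped in both genes on these probes. Their largest fold changes were -0.14 ± 0.18 for Cyp2b9 in NNK+SECY vs NNK and -0.16 ± 0.13 for Cyp2b13 in NNK+SECY vs SECY. A second probe of Cyp2b13, which passed the filter, differed, with 0.09, 0.04, -0.15 and -0.11 on Untreated 1 to 4. It gave -0.21 in NNK+SECY vs NNK, where its groups did not overlap (8.75% of all genes), and -0.18 in NNK+SECY vs SECY. The second probe of Cyp2b9, which also passed, had -0.26, -0.09, 0.13 and -0.03 on Untreated 1 to 4.

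The promoter windows of the pair, at chr7:26173159-26173458 for Cyp2b9 and chr7:26061245-26061544 for Cyp2b13, both on the plus strand, are printed because the 2 genes are near copies. They were identical at 298 of 300 positions (99.3%), and capitals mark the 2 positions that differ.
Cyp2b9: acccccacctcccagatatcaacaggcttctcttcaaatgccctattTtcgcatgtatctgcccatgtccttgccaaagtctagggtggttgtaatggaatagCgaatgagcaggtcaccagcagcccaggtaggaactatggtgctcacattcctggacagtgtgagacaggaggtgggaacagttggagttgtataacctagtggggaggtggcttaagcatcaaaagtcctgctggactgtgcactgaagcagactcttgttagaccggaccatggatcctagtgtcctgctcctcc
Cyp2b13: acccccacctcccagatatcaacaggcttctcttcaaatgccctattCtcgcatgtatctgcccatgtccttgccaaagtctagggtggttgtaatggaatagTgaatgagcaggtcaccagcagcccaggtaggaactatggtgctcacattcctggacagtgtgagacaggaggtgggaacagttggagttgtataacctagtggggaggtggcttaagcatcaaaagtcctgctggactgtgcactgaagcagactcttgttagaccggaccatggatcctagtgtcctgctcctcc
Where transcripts are as close as these windows, a probe may bind both, and how far the probes of the pair share targets was not tested.

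The other named drug-metabolising enzymes varied little on their brightest probes. Cyp2d22 lay between -0.16 and 0.27 on all 16 arrays. On the same arrays Cyp3a13, an enzyme expressed in intestine, lay between -0.07 and 0.31, with its highest value on NNK+SECY 3. Cyp2g1, an olfactory enzyme, lay between -0.09 and 0.08 there. Another probe of Cyp2d22, which passed the filter, varied more, with 0.48 on NNK+SECY 3, 0.10 on SECY 4 and -0.23 on SECY 2. It gave 0.19 in NNK+SECY vs Untreated. The remaining Cyp2d22 probe, which also passed, had 0.10 on NNK+SECY 3 and gave 0.09 in that comparison. Cyp1a2, the liver enzyme induced by dioxins and other aryl hydrocarbon receptor ligands, was well above background on only 3 of 16 arrays and was not tested. Its highest ratio, 0.37, was on NNK+SECY 3. Cyp2c55 had a fold change of 0.14 ± 0.08 and Cyp2c65 of -0.11 ± 0.05 in the comparisons where their p was among the smallest 3, NNK+SECY vs SECY and NNK+SECY vs NNK, and neither passed (adjusted p = 0.828 and 0.438).

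Cyp4b1, the typical lung enzyme of the fatty acid group, did not separate the groups. It had 0.00, 0.09, -0.23 and -0.05 on NNK+SECY 1 to 4, against -0.19, -0.23, -0.02 and 0.02 on SECY 1 to 4, -0.12, -0.11, -0.12 and -0.06 on NNK 1 to 4, and -0.44, 0.05, 0.11 and 0.01 on Untreated 1 to 4. Its log2 Cy5 signal was 13.1 ± 0.2 in NNK+SECY lungs, 13.0 ± 0.1 in SECY lungs, 12.8 ± 0.1 in NNK lungs and 13.2 ± 0.2 in Untreated lungs (SD, n = 4 each). The fold changes of its ratio lay between -0.04 and 0.06 in the 5 pairs, each with an SE of 0.10, and the adjusted p was at least 0.911 in all of them. The lowest value of the gene was that of an Untreated lung, and the Untreated range enclosed that of each other group.

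Cyp4x1, a little-studied member of family 4, had 0.27, 0.29, 0.15 and 0.14 on NNK+SECY 1 to 4, against 0.17, 0.11, 0.11 and 0.08 on SECY 1 to 4, 0.28, 0.14, 0.33 and 0.12 on NNK 1 to 4, and 0.09, 0.17, 0.00 and 0.06 on Untreated 1 to 4. Of the 8 arrays of injected mice, 4 were above every array of mice without NNK, and the others overlapped with them. The changes were 0.13 ± 0.06 in NNK+SECY vs Untreated and 0.14 ± 0.06 in NNK vs Untreated, with adjusted p = 0.494 and 0.907. In Cy5 alone NNK+SECY vs Untreated gave 0.90 and passed (adjusted p = 0.000502), as did 15.5% of all genes, while its Cy3 signal, that of the pool, was higher by 0.77 in the same comparison.

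The other fatty acid and eicosanoid enzymes moved within narrow limits. Cyp2j9, an arachidonic acid epoxygenase, had -0.14 ± 0.08 in SECY vs Untreated (adjusted p = 0.747). Cyp2u1, a fatty acid hydroxylase, had 0.12 ± 0.06 in NNK vs Untreated (adjusted p = 1). It was well above background on only 1 NNK and 1 Untreated array. In that comparison its Cy5 signal differed by -0.01 and its Cy3 signal, that of the pool, by -0.13. Cyp2j6, another member of the epoxygenase subfamily, had 0.12 ± 0.07 in NNK+SECY vs Untreated with 3 NNK+SECY arrays, since NNK+SECY 4 and SECY 4 had no value. It was the 1 member whose groups did not overlap in that comparison, where 6.87% of all genes had such groups. A second probe of Cyp2j6, which passed the filter, gave -0.05 in the same comparison, and its groups overlapped. Cyp4f18, which hydroxylates leukotrienes in neutrophils, Cyp4f13 and Cyp4v3 lay between -0.17 and 0.29 on all arrays.

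In SECY vs Untreated 3 members had groups that did not overlap (Cyp2c37, Cyp2c44 and Cyp2j13), beside 4.14% of all genes, and in NNK vs Untreated 1 had (Cyp2c37), also beside 4.14%. No member had such groups on its brightest probe in NNK+SECY vs NNK, beside 8.75% of all genes, or in NNK+SECY vs SECY, beside 3.03%. Cyp2j13 was well above background on 4 NNK+SECY and 3 SECY arrays but on no NNK or Untreated array, so that only a bound of at least 1.03-fold of SECY over Untreated could be set from its Cy5 signal. The limma model of its ratio did not pass in that comparison (adjusted p = 0.502). Its mean log2 Cy5 signal was 6.03 in SECY lungs against 5.95 in Untreated lungs, with 5.98 as the mean limit used for the Untreated arrays.

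Cyp26b1, which breaks down retinoic acid and so limits its signalling, varied more from mouse to mouse than nearly every other gene (99.5th percentile of the spread within groups). It had 1.12, 0.73, 1.47 and -0.18 on NNK+SECY 1 to 4, against -0.06, -0.30, 0.16 and 0.21 on SECY 1 to 4, 0.59, 0.17, 0.73 and 1.42 on NNK 1 to 4, and 0.53, 0.09, 0.33 and -0.31 on Untreated 1 to 4. The highest arrays were of both injected groups, but each injected group also held an array inside the range of the uninjected ones. NNK+SECY vs SECY gave 0.78 ± 0.30 (unadjusted p = 0.0193, adjusted p = 0.786, limma), NNK+SECY vs Untreated 0.63 ± 0.30 (adjusted p = 0.551) and NNK vs Untreated 0.57 ± 0.30 (adjusted p = 1). Between arrays with the same slide barcode, NNK+SECY minus SECY was 1.18, 1.03, 1.31 and -0.39 on slides 5 to 8. In the same way NNK minus Untreated was 0.07, 0.08, 0.40 and 1.74 on slides 1 to 4. The value was positive on 7 of the 8 slides, all of which compare arrays of different scan days. The interaction was 0.21 ± 0.43 (adjusted p = 1). Its partner in retinoic acid breakdown, Cyp26a1, was well above background on 5 of 16 arrays and was not tested.

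**Figure D5:**
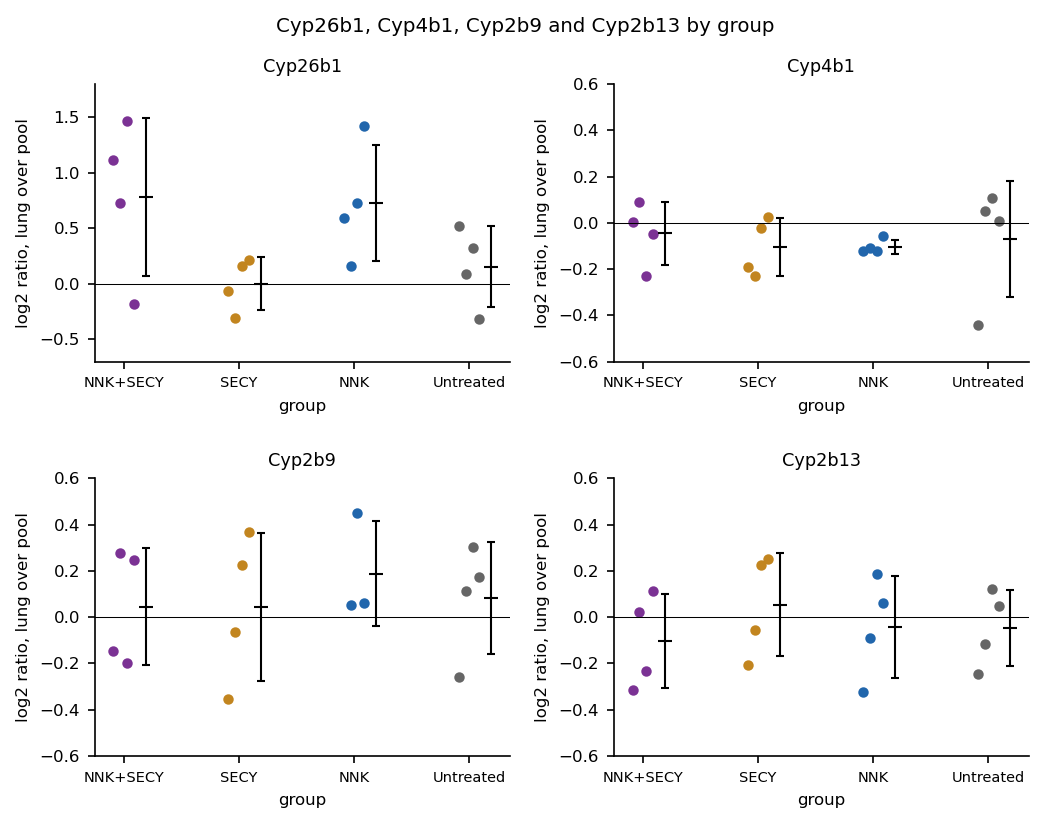
Log2 ratio of lung over pool by group for Cyp26b1, Cyp4b1, Cyp2b9 and Cyp2b13; points are arrays (4 per group, 3 for Cyp2b9 in NNK), bars the mean ± SD, and the axis of Cyp26b1 spans a wider range. Cyp26b1 reaches 1.47 in the NNK+SECY group and 1.42 in the NNK group with wide spread, while the groups of the other 3 genes overlap.

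Of the vitamin D enzymes, Cyp27b1, which makes the active hormone, had 0.03, 0.11, -0.15 and -0.10 on NNK+SECY 1 to 4, against 0.04, 0.03, 0.09 and -0.03 on SECY 1 to 4, 0.01, 0.17, 0.40 and 0.04 on NNK 1 to 4, and -0.11, -0.05, -0.05 and 0.09 on Untreated 1 to 4. NNK 3 stood highest and the groups overlapped. NNK vs Untreated gave 0.18 ± 0.08 (adjusted p = 0.916), NNK+SECY vs NNK -0.18 ± 0.08 (adjusted p = 0.445) and the interaction -0.24 ± 0.11 (adjusted p = 1). A second probe of Cyp27b1, which passed the filter, gave 0.01, -0.12 and -0.12 in the same order. Cyp24a1, which inactivates the hormone, and Cyp2r1, which carries out the first activating step, were well above background on 0 and 4 of 16 arrays.

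The sterol enzymes showed no separation of the groups. Cyp27a1, the sterol hydroxylase of mitochondria, Cyp7b1, which acts on oxysterols, Cyp39a1 and Cyp46a1, the cholesterol hydroxylase best known in brain, had fold changes between -0.09 and 0.13 in the 5 pairs. Cyp7a1, the rate-limiting enzyme of bile acid synthesis, had -0.15 ± 0.08 in NNK+SECY vs NNK (limma, adjusted p = 0.535). Its second probe, which passed the filter, gave 0.07 in that comparison. In NNK+SECY vs Untreated the second probe gave 0.13 and the brightest -0.12. Cyp8b1 was well above background on 1 array. Among the enzymes of steroid hormone synthesis, Cyp11a1, Cyp17a1 and Cyp21a1 had fold changes between -0.05 and 0.09. Cyp19a1, aromatase, was well above background on 4 NNK+SECY and 2 SECY arrays and on no NNK or Untreated array, and it did not pass in any comparison. The orphan Cyp20a1 lay between -0.10 and 0.16 on the 16 arrays.

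The partners of the P450 enzymes gave 0 calls as well. Of 22 listed electron donors, heme carriers and receptors, 20 were tested, and 0 rose and 0 fell in each of the 6 comparisons (limma). Of the 20, 3 had an unadjusted p under 0.05 in NNK+SECY vs Untreated (9.19% of all genes) and 3 in NNK+SECY vs NNK (9.88%). The median change of the 20 was 0.06 in NNK+SECY vs Untreated and 0.07 in NNK+SECY vs NNK. The smallest p was that of Pgrmc1, a heme-binding membrane protein that associates with P450 enzymes, at 0.31 ± 0.10 in NNK+SECY vs NNK (adjusted p = 0.167). The P450 reductase Por had -0.10 ± 0.17 in NNK+SECY vs Untreated. In that comparison the receptor Ppara was at 0.24 ± 0.10 (limma, adjusted p = 0.425). Ahr, the aryl hydrocarbon receptor, was at 0.21 ± 0.23 there (adjusted p = 0.903).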

How the data were processed

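Per the file headers, the authors quantified the 16 arrays with Feature Extraction (8.1.1.1). Linear intensity of each dye, at the spot and around it, is deposited for every feature. The deposited columns further give processed intensity and, per the file headers, the log10 ratio of the red dye over the green one. A deposited table holds log2 values that equal the file's log10 ratio on the log2 scale within 0.005, so red (Cy5, the lung) over green is its direction. No dyes were swapped.

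Mean spot signals were corrected with normexp at an offset of 50 and normalized within arrays by loess (R 4.3.3, limma 3.58.1; data.table in version 1.17.8), with control spots and outlier spots at weight 0. Outlier spots were then left out, spots of a probe averaged, and the probe with the highest mean intensity kept per gene name. Of 28100 names, 21513 were tested. A limma model (lmFit, eBayes) with a mean per group over 16 arrays gave 5 pairs and the interaction, at an adjusted p of 0.05. A gene without a value on some arrays was fitted on the rest (2 members). Signal per dye was taken after Aquantile scaling. A bound takes, per array, the higher of the dim probe's signal and the lowest signal well above background. Median Cy5 spot signal was 71.2 to 105 per array, and the number of arrays limits the precision. On simulated shifts of 0.5 and 1 (log2) in NNK+SECY vs Untreated, 89 and 98 of 100 genes were recovered among 21513. Each shift also gave 8 false calls. The recovery is not split by spread within groups, in which 9 tested members lay above the 99th percentile.

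The members, lists, naming rule and alternatives were chosen with earlier results of these data known. Genes named are called members, the 3 smallest p per comparison, 31 genes whatever their values and, beyond the rule, those with high values on NNK+SECY 3, the Cyp2b pair, the members whose groups did not overlap and the partners with values. Of these 31, Cyp4f17 has no value here. One RefSeq promoter window per gene was matched by symbol for 44 of 60 members.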

Additional observations from a re-analysis of the deposited data

Results flagged for a closer look

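Within groups of 4 arrays, 17 single values stood apart from the other 3 by Dixon's criterion at 95%. Chance marks about 1 in 20 groups, and over all genes 5.23% were marked in NNK+SECY, 8.79% in SECY, 5.01% in NNK and 5.16% in Untreated. The marked members numbered 8 in NNK+SECY, 5 in SECY, 3 in NNK and 1 in Untreated.

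On NNK+SECY 3 the high log2 ratios were 2.27 for Cyp2d26, 2.26 for Cyp4a14, 1.56 for Cyp3a11, 1.44 for Cyp2d10, 1.29 for Cyp2c40, 1.23 for Cyp2c70 and 0.21 for Cyp2c44. On SECY 4 they were 1.48 for Cyp3a41, 1.25 for Cyp3a25, 0.96 for Cyp2d26, 0.94 for Cyp4a14 and 0.72 for Cyp3a11. The liver markers were also highest on these arrays, and their part in the P450 values was not tested.

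On NNK 3, Cyp2c29 was high at 0.32 and Cyp2d22 at 0.034, and on NNK 4 Cyp2c37 was low at -0.84. On Untreated 3 Cyp3a25 was high at 0.41, and on NNK+SECY 2 Cyp7a1 was high at 0.038.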

How the results depend on the processing

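Alternatives were the processed signals, median centring, an offset of 16, no filter, the mean over probes, updated names, the authors' table, Cy5 alone, slide as a random or fixed block, the replicate block, array weights, only the arrays compared, a 1.5-fold threshold and each array left out, and, chosen after the data were seen, both liver-high arrays left out. The count of members called stayed at 0 except as follows. In SECY vs Untreated it was 8 with Cy5 alone, which called 21.8% of all genes, and 1 (Cyp2c37) with the replicate block (adjusted p = 0.0434), with only the arrays compared, with array weights and without both liver-high arrays, and it ranged from 0 to 1 over arrays left out, being 1 without NNK+SECY 3 and without NNK+SECY 4. With Cy5 alone it was 4 in NNK+SECY vs Untreated (15.5% of all genes) and 3 in NNK+SECY vs NNK (7.79%), and in both it was 1 (Cyp2c37) without NNK+SECY 3 or both arrays, with a range of 0 to 1.

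With Cy5 alone the sign turned for Cyp2c37 (0.47 in SECY vs Untreated, 0.51 in NNK+SECY vs Untreated, 0.55 in NNK+SECY vs NNK), Cyp2u1 (-0.010 in NNK vs Untreated), Cyp26b1 (0.049 in SECY vs Untreated, -0.017 in the interaction) and, in NNK+SECY vs NNK, Cyp27b1 (0.086), Cyp2c65 (0.05) and Cyp7a1 (0.063). In NNK+SECY vs Untreated, Cyp2c29 (-0.088) and Cyp3a11 (-0.030) turned without NNK+SECY 3, with or without SECY 4, and over arrays left out they reached 0.52 and 0.533. Cyp26b1 turned in NNK+SECY vs NNK with array weights (-0.019) and without NNK 2 (-0.13), NNK+SECY 1 (-0.06), NNK+SECY 3 (-0.172) or both arrays (-0.172), with up to 0.379 over arrays left out, and its interaction turned without NNK+SECY 3 (-0.018, up to 0.533). The causes were not tested. Same-numbered arrays had residual correlations of -0.12 to 0.46 on one slide and -0.11 to 0.50 across slides, so the numbers were not taken to pair the mice. Probes near background limit the 14 untested members, which have no call either way. Such probes also limit the tested members that were not well above background on all 16 arrays.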
